A study of Mus musculus with 3 samples.

Results

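The 38 mouse Hox genes examined here were chosen by name from the 4 Hox clusters, out of 32285 genes in the count tables. No measured value was a criterion, but earlier results of these data were known when the choice was made. They are 10 Hoxa, 10 Hoxb, 9 Hoxc and 9 Hoxd genes, and in each library between 32 and 34 of them had at least 1 UMI (unique molecular identifier, the tag that counts 1 captured transcript). Their RNA was followed in single cells of the colon of germ-free mice, which are raised without microbes.

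Hox genes encode homeodomain transcription factors that give cells an address along the head-to-tail axis. Within a cluster the genes lie in the order in which they are used along that axis, so members of low paralogue number are anterior and members of paralogue group 13 are the most posterior. In the gut tube, posterior Hox genes mark the hindgut, from which the colon forms, and the layers of the gut wall (epithelium, connective tissue, muscle, vessels) each keep a Hox combination of their own in the adult.

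All mice were germ-free at the start: one library came from mice given PBS, one from mice that BT WT had colonized and one from mice that BT mutant had colonized. Values given as 3 numbers are in this order. The labels name the colon and the treatment and leave BT, the mutation, the time, the number of animals and the segment of colon unspecified. With 1 library per group there is no replicate and therefore no test: intervals below are exact 95% intervals that cover counting error only, and colonization, animal, dissected segment and library preparation cannot be told apart. Kept cells numbered 3198, 7070 and 6138 in the 3 libraries, with median depths of 3671.5, 3845 and 3355 UMIs, and they held 7664, 16433 and 12124 Hox UMIs. Pairs of libraries shared 6 to 13 cell barcodes.

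Cells were clustered without the Hox genes, and classes were named from marker genes. The epithelial-like class (1511, 4507 and 3783 cells) carried its 15 markers at 15793 to 21114 CPM (UMIs of a gene scaled to a fixed total per class and library) with none at 0, and the fibroblast-like class (144, 212 and 360 cells) carried its 12 markers at 39685 to 42282 CPM with none at 0. Markers of the other class were low in both: 125 to 168 CPM of fibroblast markers in the epithelium and 730 to 1099 CPM of epithelial markers in the fibroblasts. Smaller classes were mesothelial-like (38, 26 and 156 cells), endothelial-like (42, 79 and 97 cells), smooth muscle or pericyte-like (32, 18 and 27 cells) and glia or neuron-like (7, 15 and 16 cells). Mesothelial-like cells were shallow, with medians of 1130 to 1386 UMIs, and held 3850.5 to 12682 CPM of epithelial markers, so low levels in that class may not belong to its own cells. The 3′ tags count transcripts irrespective of transcript length, so levels of different genes in CPM are set side by side.

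In the GRCm38 annotation, the Hoxa genes lie on the minus strand of chromosome 6, from Hoxa2 (chr6:52162417-52164831) to Hoxa13 (chr6:52257694-52260880). The Hoxb genes lie on the plus strand of chromosome 11, where Hoxb13 (chr11:96194316-96197447) stands apart, followed by Hoxb9 (chr11:96271457-96276595) and the run from Hoxb8 to Hoxb2 (chr11:96350525-96354012). Hoxc is on chromosome 15 and Hoxd on chromosome 2. Of the 38 genes, 22 had promoters in the RefSeq table for GRCm38.p6, with 24 promoters in all. The 250 bases before the start are printed for 2 genes counted in the epithelium (Hoxa13, Hoxa7) and 2 higher in stromal classes than there. The latter are Hoxb4 (fibroblast-, endothelial- and smooth muscle or pericyte-like cells) and Hoxb8 (endothelial-like cells). Hoxa7 was also higher in endothelial-like cells than in the epithelium, so the 2 pairs are not separate kinds. Capitals mark TTTAT on either strand (ATAAA on the printed strand), the core letters bound by Cdx factors and by posterior Hox proteins.
Hoxa13, chr6:52260881-52261130, minus strand: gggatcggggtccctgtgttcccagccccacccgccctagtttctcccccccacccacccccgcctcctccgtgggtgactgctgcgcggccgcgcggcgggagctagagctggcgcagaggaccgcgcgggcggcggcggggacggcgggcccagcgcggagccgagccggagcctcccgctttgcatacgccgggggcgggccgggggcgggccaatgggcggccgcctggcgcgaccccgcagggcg
Hoxa7, chr6:52218574-52218823, minus strand: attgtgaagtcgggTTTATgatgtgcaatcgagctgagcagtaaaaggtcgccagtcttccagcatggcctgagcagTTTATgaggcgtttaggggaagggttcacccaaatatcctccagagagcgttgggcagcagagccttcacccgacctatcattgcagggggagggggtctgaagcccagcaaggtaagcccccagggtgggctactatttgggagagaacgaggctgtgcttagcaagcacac
Hoxb4, chr11:96318017-96318266, plus strand: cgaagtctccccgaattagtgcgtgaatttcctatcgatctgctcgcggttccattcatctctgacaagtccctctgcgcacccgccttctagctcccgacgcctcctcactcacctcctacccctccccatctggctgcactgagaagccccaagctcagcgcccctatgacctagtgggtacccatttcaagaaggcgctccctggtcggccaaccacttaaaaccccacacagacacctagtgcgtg
Hoxb8, chr11:96281655-96281904, plus strand: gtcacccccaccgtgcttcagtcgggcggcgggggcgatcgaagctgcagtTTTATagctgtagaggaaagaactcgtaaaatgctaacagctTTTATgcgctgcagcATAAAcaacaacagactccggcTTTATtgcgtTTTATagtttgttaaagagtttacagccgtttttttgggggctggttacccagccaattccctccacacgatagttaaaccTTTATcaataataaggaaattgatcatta
Hoxb8 held 6 matches in this window, Hoxa7 held 2, and Hoxa13 and Hoxb4 held 0. Of the 24 Hox promoters 9 held the motif (37.5%), against 37.3% of all 32851 promoters of that length. The CG pair was denser in the Hox promoters, with a median of 12.5 per window against 6.0 over all promoters.

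In epithelial-like cells the Hox RNA was almost all Hoxa and posterior Hoxb. Over the 3 libraries, 32539 Hox UMIs were counted there, 48.6% from Hoxa members and 51.4% from Hoxb members, while Hoxc members gave 4, 5 and 2 UMIs and Hoxd members 4, 3 and 6. Hoxb13, the most posterior gene of its cluster, alone gave 41.2% (95% interval 40.6 to 41.7), and it stood at 141.5 CPM in the PBS library, 206 in BT WT and 94.0 in BT mutant. Hoxa13, its paralogue, stood at 36.2, 44.8 and 39.7 CPM, Hoxb9 at 34.9, 31.0 and 36.3 CPM and Hoxa7 at 28.0, 40.4 and 36.6 CPM. Hoxb13 was thus the member with most UMIs in each library, and BT WT had the highest level. The order of PBS and BT mutant depended on how cells were weighted: the share of epithelial-like cells with a Hoxb13 UMI, each cell thinned to 1000 UMIs, was 10.5% (8.70 to 12.5) in PBS and 10.4% (9.44 to 11.5) in BT mutant, and in colonocyte-like cells 9.10% and 11.4%.
The other Hoxa genes were present in a graded set. Hoxa10 had 21.4, 31.6 and 23.8 CPM, Hoxa9 18.1, 27.5 and 24.2 CPM, Hoxa5 12.5, 30.1 and 18.4 CPM, and Hoxa3, an anterior member, 9.15, 18.7 and 14.1 CPM. Hoxa6 (1.74, 5.81 and 4.03 CPM), Hoxa2 (2.02, 5.31 and 3.58 CPM), Hoxa4 (1.08, 2.20 and 1.30 CPM) and Hoxa11 (1.13, 0.851 and 1.55 CPM) were at the low end. Anterior Hoxa genes were therefore counted in the same epithelium as group 13.

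**Figure D1:**
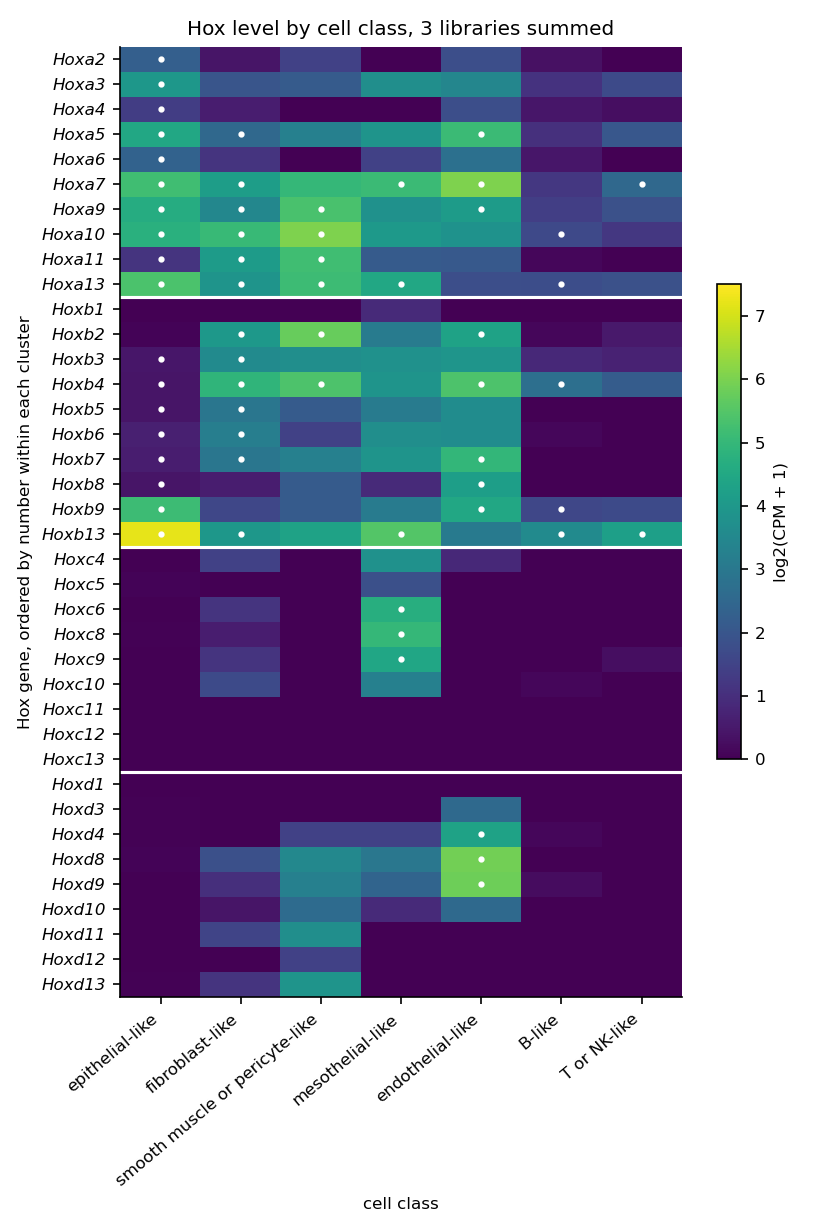
Heat map of log2(CPM + 1) for the 38 Hox genes (rows, by cluster and paralogue number) in 7 marker-named classes (columns), the 3 libraries summed, with white dots where a gene had at least 20 UMIs. In the epithelial-like column most Hoxa genes, Hoxb9 and Hoxb13 are bright and Hoxb2 to Hoxb8 are dark; Hoxd8 and Hoxd9 are brightest in endothelial-like cells, and Hoxc6, Hoxc8 and Hoxc9 in mesothelial-like cells.

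The stretch from Hoxb2 to Hoxb8 separated epithelium from stroma. In the epithelium these 7 genes together gave 38, 45 and 148 UMIs, or 1.78, 1.32 and 4.17 CPM, although their neighbours Hoxb9 and Hoxb13 were among the leading Hox genes. In fibroblast-like cells the same 7 genes gave 88.9, 59.8 and 81.7 CPM, 49.9-fold (34.6 to 73.5), 45.3-fold (31.7 to 65.8) and 19.6-fold (15.8 to 24.4) above the epithelium of the same library. Hoxb4 had 40.8, 19.9 and 28.4 CPM in fibroblasts and 0.328, 0.117 and 0.591 CPM in the epithelium. Hoxb8 was the member of the stretch without this contrast, with 1, 0 and 2 UMIs in fibroblasts, but it had 17.3 CPM over the 3 libraries in endothelial-like cells. Hoxb9 was reversed: 1.98, 2.28 and 1.95 CPM in fibroblasts, 17.7-fold (6.02 to 85.9), 13.6-fold (5.31 to 50.1) and 18.7-fold (7.97 to 57.5) below the epithelium. The direction of both contrasts was the same in the 3 libraries.
Of the members with at least 20 UMIs over both classes, those at least 1.5-fold higher in epithelium numbered 8 of 15 in PBS (29.3% of all genes), 10 of 16 in BT WT (32.5%) and 10 of 18 in BT mutant (29.9%). Those at least 1.5-fold lower numbered 4 (36.6% of all genes), 5 (31.7%) and 7 (35.7%). Hoxa11, Hoxb2, Hoxb4 and Hoxb6 were on the lower side in each library, and Hoxa2, Hoxa3, Hoxa5, Hoxa7, Hoxa9, Hoxa13, Hoxb9 and Hoxb13 on the higher side. Hoxa11 showed the contrast most clearly within Hoxa: 15.1, 15.9 and 17.5 CPM in fibroblasts, 13.5-fold (7.25 to 24.9), 18.7-fold (10.7 to 32.7) and 11.3-fold (7.45 to 17.1) above the epithelium.

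**Figure D2:**
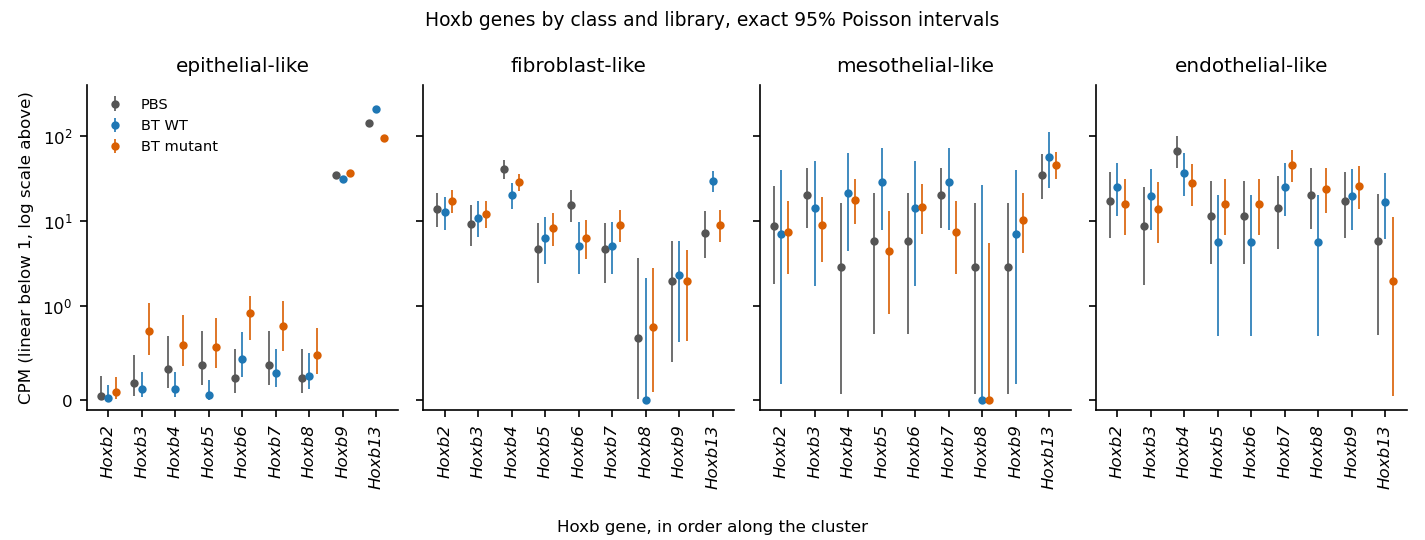
Levels in CPM (axis linear below 1 and logarithmic above) of the Hoxb genes from Hoxb2 to Hoxb13 in epithelial-, fibroblast-, mesothelial- and endothelial-like cells; points are the 3 libraries and bars exact Poisson 95% intervals. In the epithelial-like panel Hoxb2 to Hoxb8 lie below 1 CPM beside Hoxb9 near 35 CPM and Hoxb13 near or above 100 CPM, while the fibroblast-like panel has its highest Hoxb level at Hoxb4 in PBS and BT mutant.

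The stromal classes differed from each other as well. Fibroblast-like cells were led by Hoxa10 (30.9, 32.5 and 32.7 CPM, a posterior-trunk member) and Hoxb4, with Hoxa7 (14.5, 15.9 and 19.5 CPM), Hoxb2 (13.8, 12.5 and 17.1 CPM) and Hoxb3 (9.22, 10.8 and 12.1 CPM) following. Smooth muscle or pericyte-like cells had few UMIs, 244 in all, and summed over libraries were led by Hoxa10 (65.0 CPM, interval 46.0 to 89.3), Hoxb2 (53.1 CPM, 36.0 to 75.3) and Hoxb4 (41.1 CPM, 26.3 to 61.1).
Endothelial-like cells were led by Hoxa7 at 65.8 CPM (52.2 to 81.9), followed by Hoxd8 at 59.2 CPM (46.4 to 74.6) and Hoxd9 at 56.8 CPM (44.2 to 71.9). Hoxd members made up 30.5% (26.8 to 34.4) of the Hox UMIs of this class, against 3.39% (2.45 to 4.58) in fibroblasts. Hoxd8 had 57.4, 53.1 and 64.9 CPM in the 3 libraries, and was found in 33.3%, 13.9% and 20.6% of endothelial-like cells (7.69%, 5.08% and 5.33% with each cell thinned to 1000 UMIs; 3, 20 and 22 shallower cells left out). In B-like cells it was found in 0 of 1024, 1323 and 1124 cells, which limits the share of cells with a UMI at this depth to 0.360%, 0.278% and 0.328% (upper ends of the exact intervals) and not the share that express the gene. Median depths were 5424, 2661 and 2696 UMIs in endothelial-like and 3491, 2860 and 2774 UMIs in B-like cells.
In mesothelial-like cells Hoxc members gave 28.7% (24.4 to 33.4) of Hox UMIs, against 3.31% (2.38 to 4.48) in fibroblasts, led by Hoxc8 (30.9 CPM, 21.7 to 42.8), Hoxc6 (24.9 CPM, 16.7 to 35.8) and Hoxc9 (20.6 CPM, 13.2 to 30.7). Their Hoxb13 (34.9, 56.6 and 45.7 CPM) came with the epithelial marker RNA noted above, and its part in that level was not tested. Hoxc11, Hoxc12, Hoxc13 and Hoxd1 had 0 UMIs in every class. Hoxc5 and Hoxc10, and Hoxd3 and Hoxd4, share between 5.4% and 13.2% of their exon bases, so their counts are uncertain.

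Immune cells also carried Hox UMIs, at levels that differed between classes. B-like cells had 32.0, 34.6 and 24.96 Hox CPM and T or NK-like cells 30.8, 54.5 and 29.1 Hox CPM, against 310, 446 and 302 Hox CPM in the epithelium. Hoxb13 in T or NK-like cells stood at 8.07, 28.1 and 9.02 CPM, and in B-like cells at 7.81, 17.9 and 6.46 CPM, highest in BT WT as in the epithelium. Hoxb13 was at least 1.5-fold higher in BT WT than in PBS in T or NK-like cells (7.05% of all genes) and in B-like cells (3.15%), and at least 1.5-fold lower in BT mutant than in BT WT in both (8.5% and 7.43%). The part of epithelial RNA in these levels was not tested, so the differences may not belong to lymphocytes. Plasma-like cells (41, 206 and 135) were far above the other immune classes, with 152, 224 and 137 Hox CPM and 57.0, 102 and 89.5 CPM of Hoxb13, and held 7695, 5602 and 7134 CPM of epithelial markers, whose part in that level was not tested. Myeloid-like cells (58, 54 and 110) had 57.0, 89.1 and 44.0 Hox CPM. Hoxb4, known from blood stem cells, had 7.29, 5.05 and 4.40 CPM in B-like cells, above the 0.328, 0.117 and 0.591 CPM of the epithelium.
With every cell thinned to 1000 UMIs, 10.5%, 17.9% and 10.4% of epithelial-like cells had a Hoxb13 UMI (40.1%, 54.5% and 37.2% unthinned; 483, 220 and 206 shallower cells left out). The same share was 0.881%, 1.97% and 0.269% in B-like cells (2.93%, 4.84% and 1.96% unthinned; 2, 4 and 9 left out). Median depths were 2103, 4181 and 3584 UMIs in the epithelium and 3491, 2860 and 2774 UMIs in B-like cells. In plasma-like cells the share was 0% of 32 cells (0 to 10.9), 9.202% (5.24 to 14.7) and 9.52% (4.66 to 16.8). There 9, 43 and 30 shallower cells were left out (21.95%, 29.1% and 23.7% unthinned, median depths 2201, 4254.5 and 2302 UMIs). The epithelial share lay above that of B-like cells in each library, but in PBS and BT mutant it lay within the interval of plasma-like cells.

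Within the epithelium, members differed by cluster. Cluster 5, led by Spink4, Agr2, Mptx1, Pyy and Gcg (186, 215 and 265 cells), and cluster 2, led by Aqp4, Hao2, Gsdmc4 and Car2 (55, 135 and 235 cells), were deep in UMIs and held at least 50 cells in each library. Hoxb9 had 70.3, 64.2 and 72.9 CPM in cluster 5 and 50.9, 47.1 and 55.7 CPM in cluster 2. In the colonocyte-like clusters it had only 8.45 to 17.99 CPM. Hoxa7, a central member, was likewise at 60.4, 67.5 and 72.8 CPM in cluster 5 and 40.6, 65.6 and 53.7 CPM in cluster 2, and at 6.71 to 35.1 CPM in the colonocyte-like clusters. Among clusters with at least 50 cells in a library, Hoxb9 and Hoxa7 were thus highest in clusters 5 and 2 in each library.
Hoxa5 had another pattern. Among clusters with at least 50 cells in a library, it stood at 31.2 to 51.1 CPM in clusters 18, 20 and 29 (colonocyte-like, led by genes such as Clca4a, Ifit1bl1 and Aqp8), at 18.2, 20.8 and 18.1 CPM in cluster 5, and at 7.63 to 19.03 CPM in colonocyte-like clusters 0, 1, 4 and 16. Hoxa13 varied less between clusters, from 19.4 to 59.5 CPM over the colonocyte-like clusters and between 26.0 and 50.9 CPM in clusters 5 and 2.

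**Figure D3:**
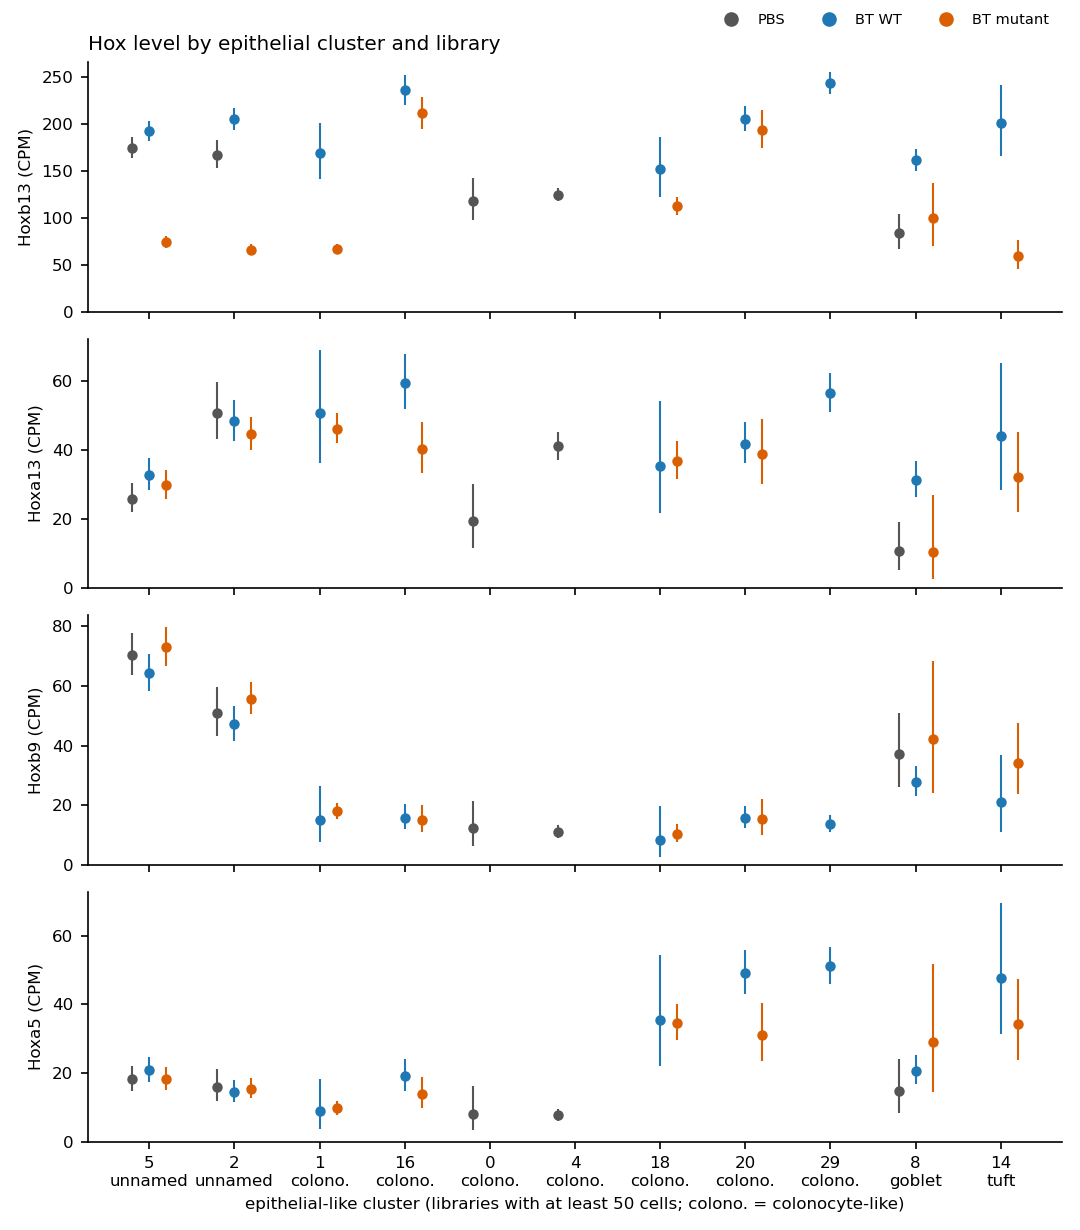
Levels in CPM of Hoxb13, Hoxa13, Hoxb9 and Hoxa5 in 11 epithelial-like clusters, with a point for each library that has at least 50 cells in the cluster and exact Poisson 95% intervals. Hoxb13 of the BT mutant library lies near 70 CPM in clusters 5, 2 and 1 and near 200 CPM in clusters 16 and 20, Hoxb9 is highest in clusters 5 and 2, and Hoxa5 is higher in clusters 18, 20, 29 and 14 (tuft-like) than in clusters 0, 1, 4 and 16.

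The comparison of BT WT with PBS asks which Hox RNAs differ with colonization of the germ-free colon. Over the whole epithelial-like class, Hoxb13 was 1.46-fold (1.40 to 1.52) higher with BT WT, Hoxa5 2.40-fold (2.10 to 2.76), Hoxa6 3.35-fold (2.35 to 4.89), Hoxa3 2.04-fold (1.74 to 2.41) and Hoxa2 2.63-fold (1.88 to 3.76). Hoxb9 was the exception among abundant members, at 0.889 (0.809 to 0.978) of its PBS level. On the scale of log2(CPM + 1), 5 of 13 members with at least 20 UMIs (Hoxa2, Hoxa3, Hoxa4, Hoxa5 and Hoxa6) were at least 1.5-fold higher, against 13.4% of all genes, and 0 were lower, against 9.86%. Their median log2 ratio was 0.54, beside 0.03 over all 13848 genes tested.
The differences were smaller within clusters that both libraries filled. In clusters 2 and 5 together, Hoxb13 was 1.15-fold higher (1.08 to 1.23), Hoxa5 1.03-fold (0.831 to 1.28), Hoxa3 1.12-fold (0.895 to 1.42) and the Hox sum without Hoxb13 1.10-fold (1.04 to 1.16). In cluster 5, 0 of 12 members were 1.5-fold higher (3.76% of all genes) and 0 were lower (5.78%), and in cluster 2 the counts were 2 of 8, Hoxa7 and Hoxa10 (8.76%), and 0 (5.58%). The PBS colonocyte-like cells were mainly in clusters 0 and 4 (720 and 326 of 1115 cells), and those of BT WT mainly in clusters 20 and 29 (1367 and 1352 of 3269 cells).
In the colonocyte-like class as a whole, with those different clusters behind the values, Hoxb13 had 123 CPM in PBS, 224 in BT WT and 113 in BT mutant, and Hoxa5 had 7.81, 40.7 and 18.7 CPM. At least 1.5-fold higher with BT WT were 9 of 11 members (30.9% of all genes) and 0 were lower (16.7%). Between BT mutant, whose cells were mainly in clusters 18 and 1 (1630 and 581 of 3061), and BT WT, 0 of 12 were higher (9.94%) and 8 lower (14.9%), and between BT mutant and PBS 6 of 10 were higher (15.6%) and 0 lower (11.2%). Cells of cluster 0 were also shallow, with a median of 859 UMIs in PBS.

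Between the 2 colonized libraries, Hoxb13 stood out over the whole epithelium and in clusters 2 and 5, but not in every class or cluster. In the epithelium it was 2.19-fold lower with BT mutant than with BT WT (ratio 0.456, 0.437 to 0.475), while Hoxa13 had a ratio of 0.888 (0.825 to 0.955), Hoxb9 of 1.17 (1.08 to 1.27) and the Hox sum without Hoxb13 of 0.867 (0.840 to 0.895). Lower by at least 1.5-fold were 2 of 18 members, Hoxb13 and Hoxa5 (8.85% of all genes), and higher was 1, Hoxb3 (5.47%). In colonocyte-like cells the Hoxa5 ratio, 0.460 (0.404 to 0.522), was close to that of Hoxb13. The share of epithelial Hox UMIs that came from group 13 was 57.3% (56.1 to 58.5) in PBS, 56.3% (55.5 to 57.1) in BT WT and 44.3% (43.4 to 45.3) in BT mutant, a measure that needs no scaling by library.
The lower Hoxb13 was also found within clusters 5 and 2. In cluster 5 Hoxb13 had 175 CPM in PBS, 193 in BT WT and 74.4 in BT mutant, a BT mutant over BT WT ratio of 0.386 (0.347 to 0.429). In cluster 2 it had 168, 205 and 65.8 CPM, a ratio of 0.321 (0.288 to 0.357), or 0.171 with cells of at most 10% mitochondrial UMIs. BT mutant lay below both other libraries in each cluster. Median depths of these 2 clusters together were 27832, 24812 and 22774 UMIs, and with cells of at most 10% mitochondrial UMIs alone Hoxb13 there was 195, 226 and 63.2 CPM. Over both clusters, the Hox sum without Hoxb13 was nearly equal, 286 CPM in BT WT and 283 in BT mutant (ratio 0.988, 0.943 to 1.03), and Hoxa13 (0.943, 0.832 to 1.07), Hoxa7 (0.939, 0.853 to 1.03), Hoxa5 (0.932, 0.772 to 1.13) and Hoxa3 (1.001, 0.824 to 1.22) had ratios whose intervals held 1.
The count of members at least 1.5-fold lower was 1 of 12 in cluster 5 (7.70% of all genes) and 1 of 9 in cluster 2 (8.64%), Hoxb13 in both. Higher were 1 in cluster 5, Hoxa11 from 10 and 29 UMIs (4.56%), and 0 in cluster 2 (4.88%).
Other clusters were not alike. Cluster 1, led by Fabp2 and Car1, had 170 CPM of Hoxb13 in BT WT and 67.1 in BT mutant (ratio 0.396, 0.328 to 0.480), with median depths of 2012.5 and 12485 UMIs, and tuft-like cells, which sense luminal signals, had 201 and 59.5 CPM (0.296, 0.213 to 0.407). In cluster 16, led by Tgm3 and Areg, the levels were 236 and 212 CPM (0.895, 0.807 to 0.993), in cluster 20 they were 206 and 194 CPM (0.943, 0.833 to 1.07), and in cluster 18 they were 152 and 113 CPM (0.743, 0.593 to 0.939). BT mutant cells of clusters 16 and 20 therefore carried about as much Hoxb13 as BT WT cells, and the ratio intervals of clusters 1, 2, 5 and 14 (tuft-like) lay wholly below those of clusters 16, 18 and 20. Hoxa10 had lower ratios than Hoxb13 in clusters 16, 18 and 20, at 0.597 (0.409 to 0.859), 0.475 (0.298 to 0.786) and 0.351 (0.202 to 0.577). Hoxa7 had a ratio of 0.469 (0.331 to 0.655) in cluster 16, but of 1.46 and 0.865 in clusters 18 and 20.

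**Figure D4:**
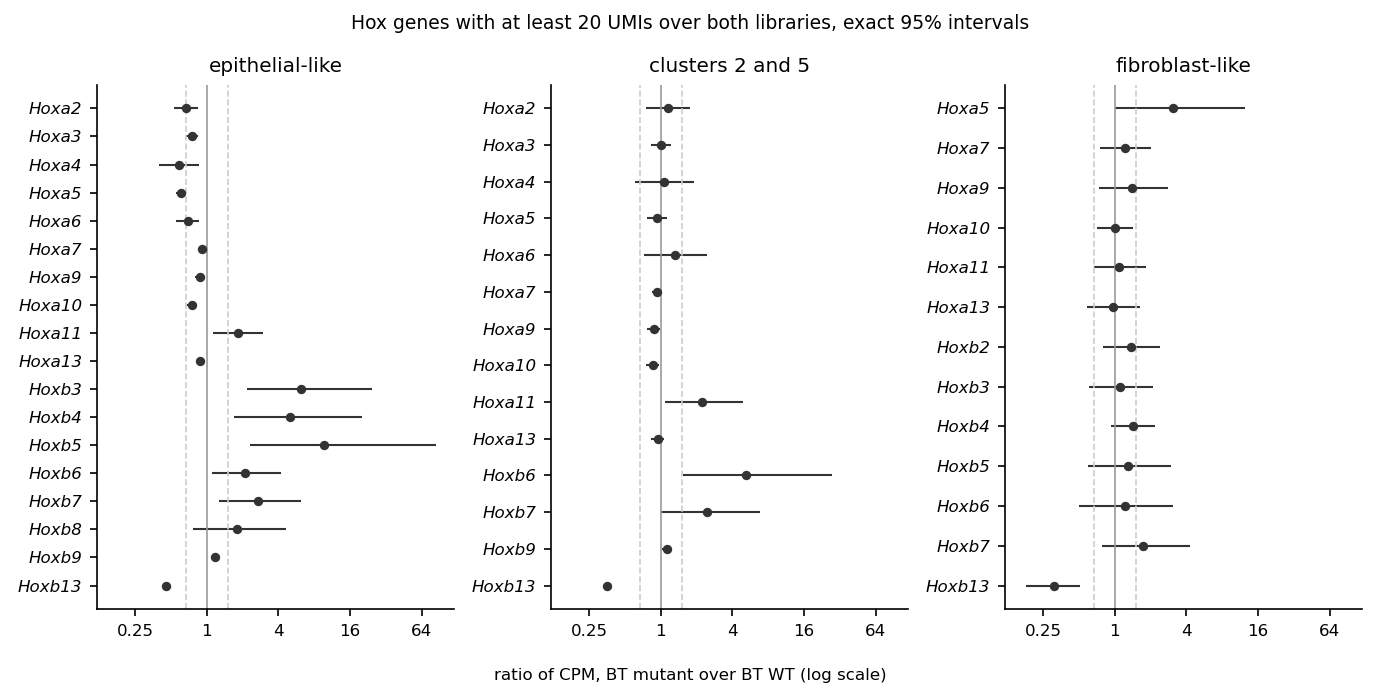
Ratio of CPM in BT mutant over BT WT for each Hox gene with at least 20 UMIs (logarithmic axis) in the epithelial-like class, in clusters 2 and 5 and in fibroblast-like cells, with exact 95% intervals and dashed lines at 1.5-fold. In clusters 2 and 5 Hoxb13 lies at 0.352, well to the left of the other abundant members, which lie close to 1, and Hoxa11, Hoxb6 and Hoxb7 lie to the right with wide intervals.

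Marks of colon segments differed between the same 2 libraries. Atp12a, a proton pump subunit of the distal colon, had 287, 345 and 69.7 CPM in the epithelium of the 3 libraries, 4.95-fold lower in BT mutant than in BT WT, and Scnn1b, a subunit of the epithelial sodium channel, had 13.1, 19.0 and 1.32 CPM. Fabp2, a fatty acid binding protein used here as a proximal mark, had 400, 283 and 1560 CPM, 5.52-fold (5.40 to 5.64) higher in BT mutant than in BT WT. Of 5 distal marks in the table (of 7 listed), 3 were lower (8.85% of all genes) and 1, Insl5, higher (5.47%) in BT mutant than in BT WT, with a median log2 ratio of -2.29. Of 5 proximal marks, 3 were higher (5.47%) and 0 lower (8.85%), with a median of 1.64.
Within clusters, the difference in Atp12a between BT WT and BT mutant paired with that in Hoxb13 only in part. Atp12a had 493 and 454 CPM in BT WT and BT mutant in cluster 20 and 680 and 293 CPM in cluster 16. Hoxb13 was near 200 CPM in both libraries there, with a ratio of 0.895 in cluster 16, so Atp12a fell further than Hoxb13 in that cluster. Atp12a had 79.7 and 14.3 CPM in cluster 1 and 52.4 and 2.85 CPM in cluster 2. It had 10.6 and 2.85 CPM in cluster 5 and 127 and 23.4 CPM in cluster 14. In these clusters Hoxb13 was low in BT mutant. In cluster 18 Atp12a had 230 and 97.1 CPM, and Hoxb13 had 152 and 113 CPM. Over the 22 points of epithelial-like cluster and library, which share libraries and clusters, Atp12a had a Pearson r with Hoxb13 of 0.62 and Fabp2 of -0.52 on the log2(CPM + 10) scale. Over the 8 BT mutant points alone, r was 0.93 for Atp12a and -0.68 for Fabp2, but -0.0075 for Scnn1b. Whether the BT mutant library held more proximal tissue was not tested, and segment and colonization cannot be told apart with 1 library each.
Among 2732 genes the 10 with the highest r over all 22 points were Hk2 (0.76), Ythdf3 (0.74), Sun2 (0.70), Rock1 (0.69), Cux1 (0.69), Pik3c2a (0.68), Arih1 (0.68), Rcor1 (0.67), Ppp4r3b (0.66) and Zfp148 (0.66). Without the BT mutant points, r was 0.43 for Hk2, 0.37 for Sun2 and 0.40 for Pik3c2a. Other Hox genes lay under the minimum mean of 50 CPM and could not be listed: Hoxa13 had an r of 0.43, Hoxa5 of 0.26 and Hoxb9 of -0.27. Ranking by Spearman rho shared 5 of these 10.

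In clusters 2 and 5, BT mutant had more cells with 0 Hoxb13 UMIs and fewer with 3 or more. Whether all of these cells or only a part had less Hoxb13 was not tested. In cells of clusters 2 and 5 thinned to 10000 UMIs (158, 264 and 385 cells), the mean was 1.74 UMIs of Hoxb13 per cell in PBS, 1.91 in BT WT and 0.660 in BT mutant. Cells with 0 Hoxb13 UMIs made up 24.7% (18.2 to 32.2) in PBS, 24.6% (19.5 to 30.3) in BT WT and 59.0% (53.9 to 63.9) in BT mutant, and cells with 3 or more made up 25.9%, 32.2% and 4.42%. Clusters 5 and 2 gave nearly the same shares taken singly, 57.4% and 60.5% of cells at 0 in BT mutant. For Hoxb9 the share at 0 was 57.6%, 59.1% and 58.7%, so the libraries did not separate on it.

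**Figure D5:**
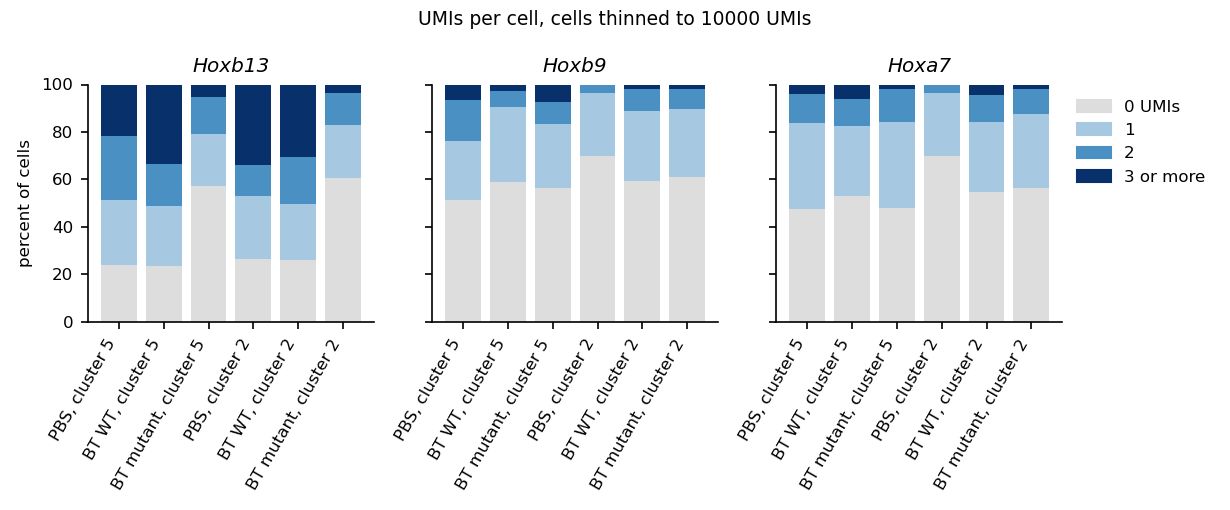
Percent of cells with 0, 1, 2 or at least 3 UMIs (stacked) of Hoxb13, Hoxb9 and Hoxa7 in clusters 5 and 2 of each library, every cell thinned to 10000 UMIs. The share of cells with 0 Hoxb13 UMIs is 23.8%, 23.5% and 57.4% in cluster 5 and 26.4%, 26.1% and 60.5% in cluster 2, while that for Hoxb9 in cluster 5 lies between 51.4% and 59.1%.

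The Hoxb genes between Hoxb2 and Hoxb8 went the other way from Hoxb13 in these clusters, at low counts. In clusters 2 and 5 they gave 24, 18 and 91 UMIs, or 2.75, 1.52 and 6.32 CPM, 4.16-fold (2.49 to 7.34) higher in BT mutant than in BT WT and 2.30-fold (1.46 to 3.78) higher than in PBS. The same sum was 8.33, 5.80 and 5.58 CPM in B-like cells and 8.07, 2.72 and 4.01 CPM in T or NK-like cells. The sum in clusters 2 and 5 was thus not clearly above that of immune cells, and its cell source was not tested. The members behind it differed: in B-like cells 63 of the 74 UMIs were Hoxb4, 1 was Hoxb6 and 0 were Hoxb7. T or NK-like cells had 0 UMIs of Hoxb6 and 0 of Hoxb7. In clusters 2 and 5 Hoxb6, a thoracic-level member, gave 1, 3 and 19 UMIs, and Hoxb7, its neighbour, 8, 7 and 21. In the whole epithelium the sum was 3.16-fold (2.25 to 4.51) higher in BT mutant than in BT WT, and no member of the stretch exceeded 33 UMIs in any library.
Cells carrying these UMIs were few: 16 of 241, 14 of 350 and 37 of 500 cells of clusters 2 and 5. Their median depths were 37247.5, 39767.5 and 29904 UMIs, against 26013, 24431 and 22543 in the other cells. In BT mutant, the 37 cells had 57.3 CPM of Hoxb13 (46.2 to 70.3) against 71.4 (66.8 to 76.2) in the other 463. Their Hoxb9 was 84.1 CPM (70.5 to 99.6) against 61.2 (56.9 to 65.6). The other libraries did not repeat both differences: Hoxb13 was 193 against 170 CPM in PBS, and Hoxb9 was 52.1 against 56.6 CPM in BT WT. Fibroblast markers in the 37 BT mutant cells stood at 54.8 CPM against 104.6 in the others, and in BT WT at 40.5 CPM against 78.6. In PBS, with 16 such cells, the corresponding values were 399.7 and 129.1 CPM, the other way round. The part of fibroblast RNA in these UMIs was not tested.

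BT mutant against PBS, the third pair, shares libraries with both comparisons above. In the epithelium Hoxb13 had a ratio of 0.665 (0.633 to 0.698) and the Hox sum without Hoxb13 of 1.23 (1.19 to 1.29), and the total over all Hox genes was nearly equal (0.974, 0.945 to 1.005). The Hoxb13 ratio was 1.02 with cells weighted equally, 1.03 with cells thinned to 1000 UMIs and 0.395 with cells of at most 10% mitochondrial UMIs, so over the whole epithelium its direction was not settled. Higher by 1.5-fold were 3 of 18 members, Hoxa2, Hoxa6 and Hoxb6 (5.90% of all genes), and 0 were lower (8.75%), with Hoxb13 just short of the bound at a log2 ratio of -0.58. In clusters 2 and 5 Hoxb13 had a ratio of 0.405 (0.374 to 0.439), Hoxb9 of 1.002 (0.900 to 1.11) and Hoxa13 of 1.09 (0.947 to 1.26). Taken singly, cluster 2 had 1 of 9 members higher, Hoxa2 (7.12%), and 1 lower, Hoxb13 (9.23%), and cluster 5 had 2 of 13 higher, Hoxa6 and Hoxa11 (4.38%), and 1 lower, Hoxb13 (10.4%).

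Goblet-like cells, which secrete mucus, had 84.1, 162 and 99.9 CPM of Hoxb13 in 111, 771 and 83 cells. BT WT was 1.93-fold (1.54 to 2.44) above PBS, a direction that turned to a ratio of 0.797 with cells of at most 10% mitochondrial UMIs and shrank to 1.04 with classes named per cell. Further, BT mutant had 0.616 (0.433 to 0.854) of the BT WT level. Hoxa13 was also highest in BT WT, with 11, 144 and 4 UMIs or 10.8, 31.3 and 10.5 CPM, but its BT WT over PBS ratio of 2.91 turned to 0.727 with thinned cells and 0.760 with classes named per cell. Hoxb9 was 37.2, 27.8 and 42.0 CPM, with intervals that overlapped between PBS and BT WT and between BT WT and BT mutant. At least 1.5-fold higher in BT WT than in PBS were 3 of 10 members (21.8% of all genes) and 0 lower (11%), and in BT mutant over BT WT the counts were 1 of 9 higher (9.19%) and 3 lower (25.2%), with the BT mutant goblet-like cells giving only 111 Hox UMIs.

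Fibroblast-like cells had a total Hox level of 193, 194 and 224 CPM in PBS, BT WT and BT mutant. Within it, Hoxb4 had 40.8 CPM in PBS, 19.9 in BT WT and 28.4 in BT mutant, a BT WT over PBS ratio of 0.488 (0.313 to 0.751). Hoxb6 had 15.1, 5.12 and 6.23 CPM, a ratio of 0.338 (0.138 to 0.759), and Hoxa13 7.90, 15.9 and 15.6 CPM, a ratio of 2.02 (0.994 to 4.36). PBS thus had the highest Hoxb4 and Hoxb6 and the lowest Hoxa13, and summed over groups 4 to 8 BT WT was lowest, at 55.2 CPM against 92.2 and 91.5.
Of 10 members with at least 20 UMIs, 2 were at least 1.5-fold higher in BT WT than in PBS, Hoxa13 and Hoxb13 (10.9% of all genes), and 2 lower, Hoxb4 and Hoxb6 (9.78%). In BT mutant over BT WT, 2 of 13 were higher, Hoxa5 and Hoxb7 (7.73%), and 1 lower, Hoxb13 (8.21%). Against PBS, BT mutant had 4 higher (8.77%) and 1 lower (8.78%). Hoxc members gave 3, 0 and 37 UMIs, an exact interval for BT WT of 0 to 2.10 CPM, and BT mutant was 7.29-fold (2.31 to 37.0) above PBS. Mesothelial markers stood at 64.5, 56.4 and 62.7 CPM in these cells, with 2 or 3 of 4 at 0, and their part in the Hoxc counts was not tested.
Hoxb13 in fibroblast-like cells was near the level of T or NK-like cells. It had 7.24, 29.04 and 8.95 CPM, against 8.07, 28.1 and 9.02 CPM in T or NK-like cells of the same libraries. B-like cells had 7.81, 17.9 and 6.46 CPM, so the BT WT fibroblast level was above theirs. The part of RNA from other cells in the fibroblast level was not tested. The Hoxb13 differences given above may therefore not belong to fibroblasts. Atp12a, an epithelial gene, followed the same order in fibroblasts with 7.24, 45.0 and 13.6 CPM. Hoxa13 in fibroblasts lay above the 2.08, 2.52 and 2.64 CPM of B-like cells.

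Partners and regulators of Hox proteins were read from lists chosen by function. Among cofactors that bind DNA with Hox proteins, Meis2 had 180, 132 and 141 CPM in fibroblasts against less than 1 CPM in the epithelium. Of 8 cofactors with at least 20 UMIs in fibroblasts 0 passed 1.5-fold in any pair of libraries (7.73% to 10.9% of all genes in 1 direction). In the epithelium 2 of 8 were higher in BT WT than in PBS (13.4% of all genes) and 1 of 7 lower in BT mutant than in BT WT (8.85%), Meis3 having the largest ratio in both (3.59, 2.22 to 6.10, and 0.518, 0.374 to 0.711).
Of 7 ParaHox and gut regional factors tested in the epithelium, 0 passed 1.5-fold between BT mutant and BT WT (5.47% of all genes higher, 8.85% lower). Cdx2, the caudal-type factor of intestinal identity, had 92.2, 93.0 and 134 CPM, a BT mutant over BT WT ratio of 1.45 (1.38 to 1.51). Hnf4a, the most abundant of the list, had 242, 323 and 287 CPM.
Of 17 regulators of Hox chromatin (Polycomb and trithorax components and Ctcf), 4 were higher (13.4% of all genes) and 0 lower (9.86%) in BT WT than in PBS. In BT mutant over BT WT, 0 were higher (5.47%) and 4 lower (8.85%), with a median log2 ratio of -0.35 beside -0.08 over all genes. Kmt2a, a methyltransferase that keeps Hox genes active, had 50.2, 90.1 and 55.9 CPM, and Ezh2, the Polycomb methyltransferase, 32.7, 24.4 and 25.5 CPM.
Among retinoid inputs, which set Hox borders in the embryo, Aldh1a1 was the most abundant in the epithelium at 706, 76.6 and 312 CPM, 9.21-fold lower in BT WT than in PBS, and it was the only 1 of 5 that was lower (9.86% of all genes). In BT mutant over BT WT it was 4.08-fold (3.91 to 4.26) higher, the only 1 of 5 (5.47%). Of the non-coding genes of the clusters, 10 of 12 listed were in the table, and Hoxa11os was the most abundant in the epithelium with 75.6, 167 and 131 CPM. It was 2.21-fold (2.09 to 2.34) higher in BT WT than in PBS, while Hottip, at the Hoxa13 end of the cluster, had 14.9, 16.4 and 14.1 CPM. Whether reads of Hoxa11os and Hoxa11 were separated by strand is not given in the sources used here, so neither count is certain.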

How the data were processed

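RNA of single cells was counted in 3 libraries (10x 3′ v3). Per the file headers, the deposited matrices are raw UMI counts per gene and barcode from Cell Ranger 5.0.0. STAR and the mm10 build come from the submitters' processing notes. How cells were called and whether strand was used is not stated in the labels or headers. The libraries held 4425, 8829 and 8195 barcodes and 42003444, 55436776 and 54943483 UMIs (PBS, BT WT, BT mutant).

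Barcodes with at least 300 genes and at most 25% mitochondrial UMIs were kept. Cells were clustered with scanpy 1.11.5 (2000 variable genes, 30 principal components, 15 neighbours, Leiden resolution 1.0), with Hox, antigen receptor, ribosomal, mitochondrial and sex-linked genes left out. Classes were named from 18 marker sets (score at least 0.25, second score at most 0.6 of the first, at least 3 markers); these thresholds were set after the cluster scores, and before the Hox values, were seen. Scrublet called 0, 122 and 85 cells, too few in PBS to be trusted, so no doublets were removed.

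UMIs were summed per class and library. Levels are CPM with exact Poisson 95% intervals, ratios have exact conditional binomial intervals and shares Clopper-Pearson intervals (scipy 1.17.1). Coverage of the ratio intervals was checked on simulated Poisson counts, the model that they assume. That check cannot cover variation between cells, animals or libraries. A gene was counted as higher or lower at 1.5-fold on log2(CPM + 1), with at least 20 UMIs over both libraries. Every member with at least 20 UMIs in a class could be named there; of other lists, the most abundant gene and those with the largest ratios, and the 10 genes most correlated with Hoxb13 among those of mean CPM of at least 50. The members and lists were chosen with earlier results of these data known. Results for 2 genes of the other lists are not reported here.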

Additional observations from a re-analysis of the deposited data

Results flagged for a closer look

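Hoxa5 had opposite directions in 2 kinds of cell. BT mutant was 3.08-fold (1.01 to 12.5) above BT WT in fibroblast-like cells, from 18 and 4 UMIs, and at 0.612 (0.554 to 0.676) of it in the epithelium and 0.460 (0.404 to 0.522) in colonocyte-like cells. The difference between the cell classes was not tested. Hoxb6 was 3.96-fold (1.54 to 13.002) higher in BT mutant than in PBS in the epithelium, from 33 and 5 UMIs, and at 0.411 (0.203 to 0.813) in fibroblast-like cells; this difference was not tested either.

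Barcodes left out by the filters (1227, 1759 and 2057, with median mitochondrial shares of 34.1%, 30.2% and 31.9%) also held Hoxb13. Scaled to the UMIs of non-mitochondrial genes it stood at 120, 291 (279 to 304) and 127 CPM in PBS, BT WT and BT mutant, so BT WT was highest there too.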

How the results depend on the processing

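No paired analysis was possible because each group has 1 library. Over 90 values of single members, 45 lay past 1.5-fold; of their 485 alternatives 473 kept the direction and 428 stayed past 1.5-fold. The epithelial Hoxb13 level of BT WT (206 CPM) was 211 with at most 10% mitochondrial UMIs, 199 with cells weighted equally, 201 with thinned cells, 199.9 with median-ratio scaling and 243 without mitochondrial genes. In the same order where a value moved, its BT WT over PBS ratio (1.46) was 1.22 with the mitochondrial limit, 1.76 weighted equally and 1.77 thinned, and 1.15 in clusters 2, 5 and 8 alone, an alternative chosen after seeing the data. Its BT mutant over BT WT ratio (0.456) was 0.323, 0.580 and 0.582, 0.479 with median-ratio scaling and 0.375 in those 3 clusters. Its BT mutant over PBS ratio (0.665), recomputed by a choice made after seeing the data, turned to 1.02 weighted equally and 1.03 thinned, and was 0.395 with the mitochondrial limit and 0.433 in those 3 clusters. In colonocyte-like cells that ratio (0.915) was 1.13 weighted equally, 1.09 thinned, 0.841 with median-ratio scaling, 0.994 with libraries clustered apart and 0.847 with classes named per cell. In colonocyte-like cells the BT WT over PBS ratio (1.82) was 2.05 with the mitochondrial limit, 1.96 weighted equally and 1.55 with median-ratio scaling. There the BT mutant over BT WT ratio (0.504) was 0.421, 0.580, 0.602 thinned, 0.544 with median-ratio scaling and 0.532 with libraries clustered apart. In cluster 2 (0.321) it was 0.171 with the mitochondrial limit and 0.370 weighted equally, and in cluster 5 (0.386) 0.343 and 0.450. The group 13 share of PBS was 50.3%, 55.5% weighted equally, 53.5% thinned and 47.5% in clusters 2, 5 and 8; that of BT WT 52.9%, 57.4% thinned and 51.0% in those clusters; that of BT mutant 30.9%, 48.7%, 49.2% and 30.7%.

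Of epithelial members higher in BT WT than in PBS (5), 1 was left with a pseudocount of 10, 3 at 2-fold and 1 in clusters 2, 5 and 8. Of those higher in BT mutant than in BT WT (1), 0 were left with that pseudocount, with at least 50 UMIs or at 2-fold, and 2 were found in clusters 2, 5 and 8; of those lower (2), 1 with that pseudocount, at 2-fold and in those clusters. In fibroblast-like cells, BT WT over PBS gave 1 higher with that pseudocount, with at least 50 UMIs and at 2-fold, and 4 with no minimum; it gave 1 lower with at least 50 UMIs and at 2-fold, and 9 with no minimum. BT mutant over BT WT gave 0 higher with that pseudocount and with at least 50 UMIs, 1 at 2-fold and 11 with no minimum, and 3 lower with no minimum. Cells with a Hoxb13 UMI were 19.4%, 31.1% and 19.3% when thinned to 2000 UMIs and 40.1%, 54.5% and 37.2% unthinned. Of the 10 genes most like Hoxb13, 5 were shared when ranked by Spearman rho.

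Directions of single members turned as follows. In BT WT over PBS, epithelial Hoxb6 was 0.758 with the mitochondrial limit and 0.890 in clusters 2, 5 and 8; goblet-like Hoxa13 was 0.727 thinned and 0.760 with classes named per cell, and goblet-like Hoxb13 was 0.797 with the mitochondrial limit. In BT mutant over BT WT, epithelial Hoxa4 was 1.15 in clusters 2, 5 and 8, Hoxb4 0.904 and Hoxb7 0.693 weighted equally and Hoxb8 0.599 thinned; colonocyte-like Hoxa11 was 0.737 with the mitochondrial limit, goblet-like Hoxa7 1.68 with classes named per cell and goblet-like Hoxb9 0.497 thinned. The cause was not tested. Counts limit all members of Hoxc and Hoxd in the epithelium, and those of Hoxb2 to Hoxb8.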

Other observations

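Hoxb2 to Hoxb8 gave 26.0%, 16.8% and 22.4% of the Hox UMIs of B-like cells in PBS, BT WT and BT mutant. Hoxb4 led them with 28, 20 and 15 UMIs, and had a UMI in 2.15%, 1.51% and 1.16% of B-like cells against 0.397%, 0.0888% and 0.449% of epithelial-like cells. Glia or neuron-like cells held only 34 Hox UMIs in all, 20 of them from Hoxb2 to Hoxb8 (58.8%), and no member reached 20 UMIs there.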
